A study of Homo sapiens with 6 samples.

Results

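LIM-only (LMO) proteins are small nuclear adaptors built from a pair of LIM zinc-finger domains, and they bind no DNA themselves. They join other transcription factors into complexes through LDB proteins, which dimerize, bind LIM domains and also hold the LIM homeodomain factors, so that LMO and LIM homeodomain proteins compete for the same LDB. SSBP proteins protect LDB from turnover, and the ubiquitin ligase RLIM marks it for degradation. LMO2 is best known from blood and endothelial cells and from T-cell leukaemia, and LMO4 from the developing cortex and breast epithelium.

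The 4 LMO genes and the 2 LDB genes were followed in astrocytes derived from H1, an established human embryonic stem cell line. These 6 genes were taken by family, out of 27439 genes with reads, and they were chosen by the read sums of LMO2 and LMO4, which are lower in ventral midbrain than in control libraries. The whole comparison of these groups was counted as used in that choice, and their differences are given as a description. The calls that the fit over all genes made for them are stated once, beside the share of all genes called, and support nothing. Both groups came from the same line: control astrocytes, which the labels describe as forebrain in character, and astrocytes of ventral midbrain character, with 3 libraries each that carry the replicate numbers 2, 3 and 4. The labels name neither the agents nor the age of the cultures, nor whether each library is a culture of its own, so the spread given here may be technical. Libraries were made from the 3' ends of polyadenylated RNA.

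The 6 libraries held 11617935 to 15391082 estimated reads. The labelled identities were read beside marker lists, which were chosen with earlier results of these data known. All 13 astrocyte markers were detected and tested, with VIM at 3264 to 5226 CPM (reads scaled to a common library size) and GFAP at 175 to 618 CPM, while ALDH1L1 stayed at 0.378 to 2.05 CPM. Of these 13, edgeR, fitted on group alone without the replicate numbers here and below, called 3 higher in ventral midbrain libraries and 10 did not pass. The water channel gene AQP4 was at a mean of 3.86 CPM in control and 30.5 CPM in ventral midbrain libraries, the glutamate transporter gene SLC1A3 at 35.4 and 94.4 CPM, and NFIA, a glial transcription factor gene, at 110 and 196 CPM (edgeR adjusted p of 0.048, 0.035 and 0.045). Each of these calls was lost in some of 16 alternative analyses, AQP4 in 5, SLC1A3 in 4 and NFIA in 7, with highest adjusted p of 0.21, 0.12 and 0.20, and leaving out 1 library was enough for each. Blocking by replicate number gave 3 higher and 3 lower, the latter GJA1, SOX9 and CD44. The part of these astrocyte differences in those of LMO2 and LMO4 was not tested. Of 8 ventral midbrain markers 7 could be tested, and 3 (EN1, EN2 and NKX6-1) were higher with edgeR while 4 did not pass. The call of EN1 was lost in 0 of the 16 alternatives, and those of EN2 and NKX6-1 in 3 each. Their highest adjusted p were 0.18 and 0.15, both with voom, which called 1 of the 7. Leaving out 1 library was also enough for EN2 and NKX6-1. EN1, a midbrain homeobox gene, was at 3.93 to 6.59 CPM in control and 191 to 219 CPM in ventral midbrain libraries. LMX1A was at 0.607 and 0.658 CPM on average, FOXA2 had 0, 16 and 0 reads in the ventral midbrain libraries, and PAX8 averaged 126 CPM in control and 295 CPM in ventral midbrain libraries (adjusted p = 0.25 with edgeR and 0.00038 when blocked by replicate number). Of 8 forebrain markers 7 could be tested, and no read was assigned to EMX1 in either group. In ventral midbrain libraries 6 of the 7 were lower with edgeR, and 5 when blocked by replicate number. EMX2, a forebrain gene, was at 25.7 to 45.2 CPM in control and 2.79 to 4.08 CPM in ventral midbrain libraries. OTX2 averaged 17.6 and 2.33 CPM, without overlap (adjusted p = 0.24 with edgeR and 0.0014 when blocked by replicate number).

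Among the 6 genes, LMO2 showed the widest gap between the groups and LMO4 carried most of the reads. LMO2 was 20.7-fold lower in mean CPM in ventral midbrain libraries, LMO4 was 1.82-fold lower, and LMO1, LMO3, LDB1 and LDB2 overlapped between the groups. All 6 genes passed the filter on low counts. With edgeR, 2 of the 6 were lower at an adjusted p under 0.05 and 0 were higher, against 1.09% of all 15984 genes tested that were lower and 1.06% that were higher. These 2, LMO2 and LMO4, were also the members without overlap between the groups in the lower direction, which held for 8.75% of all genes tested, and 0 were without overlap in the higher direction, against 9.17%. Since the same comparison chose them, these counts are not evidence about the family.

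**Figure D1:**
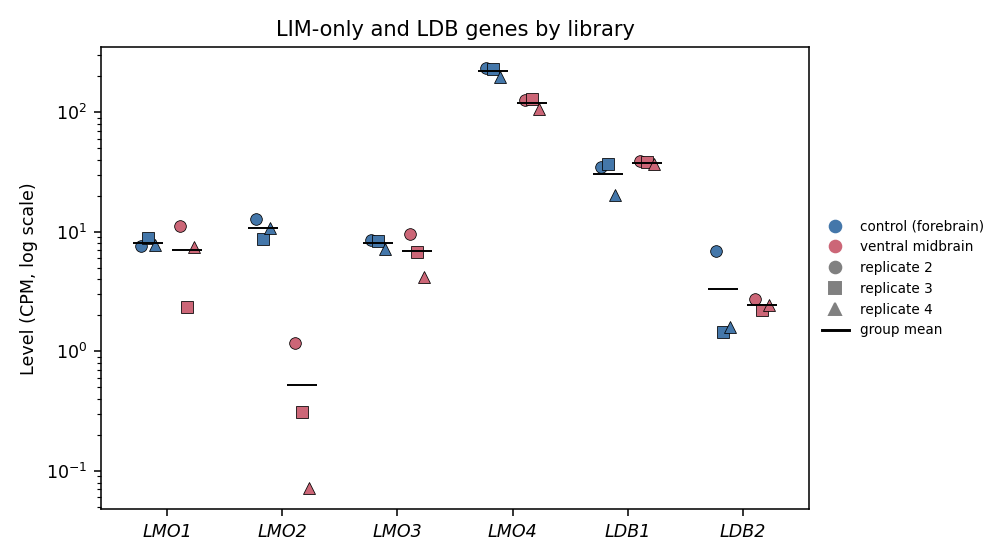
Level of each LMO and LDB gene in CPM on a log axis. Each point is 1 library (blue, control; red, ventral midbrain; the shape gives the replicate number) and each line a group mean of 3. LMO2 lies at 8.73 to 12.7 CPM in control and 0.0716 to 1.17 CPM in ventral midbrain libraries, and the groups of LMO4 also lie apart.

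LMO2 (ENSG00000135363.11, chromosome 11, 33858576 to 33892289, minus strand, GRCh38) encodes the bridging factor that joins TAL1 and GATA proteins in blood progenitors. It had 174, 102 and 143 reads in control replicates 2, 3 and 4 and 18, 4 and 1 reads in ventral midbrain replicates 2, 3 and 4. In CPM this was 12.7, 8.73 and 10.8 against 1.17, 0.314 and 0.0716. Every control library lay above every ventral midbrain library, and the ventral midbrain libraries themselves differed widely. The single read of ventral midbrain replicate 4 has an exact Poisson 95% interval of 0.00181 to 0.399 CPM, and replicate 2 one of 0.693 to 1.85 CPM, which do not overlap and cover counting error only. The group means were 10.8 ± 2.0 CPM (SD, n = 3) and 0.518 ± 0.577 CPM (SD, n = 3), and the log2 fold change was -4.32 ± 0.67 (SE). In same-numbered pairs the log2 difference was -3.36, -4.50 and -6.22. Without ventral midbrain replicate 2, which held 18 of the group's reads, the log2 fold change was -5.77.

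LMO4 (ENSG00000143013.12, chromosome 1, 87328468 to 87348923, plus strand) encodes the most widely expressed LIM-only protein. It had 3175, 2690 and 2578 reads in control replicates 2, 3 and 4 and 1945, 1643 and 1472 in the ventral midbrain replicates. These counts correspond to 232, 230.2 and 195 CPM for control, against 126, 129 and 105 CPM for ventral midbrain. The lowest control library was well above the highest ventral midbrain library, and replicate 4 was the lowest of its group in both. The means were 219 ± 20.9 and 120.2 ± 12.9 CPM (SD, n = 3 each), so that ventral midbrain libraries held 54.9% of the control level. The log2 fold change was -0.87 ± 0.15 (SE). The pairs of equal number differed by nearly the same amount, with log2 differences of -0.88, -0.84 and -0.89, whereas those of LMO2 ranged over several units.

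LMO1 (ENSG00000166407.13, chromosome 11, 8224304 to 8268716, minus strand), a gene of the developing nervous system also activated in T-cell leukaemia, had 103, 103 and 102 reads in the control replicates, against 173, 30 and 105 in the ventral midbrain replicates. This gave 7.53, 8.81 and 7.71 CPM for control, against 11.2, 2.35 and 7.52 CPM for ventral midbrain. Ventral midbrain replicates 2 and 3 lay on opposite sides of all control libraries. The log2 fold change of -0.18 ± 0.47 (SE) turned to 0.23 without ventral midbrain replicate 3.

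LMO3 (ENSG00000048540.14, chromosome 12, 16548373 to 16610594, minus strand), a gene expressed in neurons and neuroblastoma, was at 8.49, 8.39 and 7.11 CPM in the control replicates. The ventral midbrain replicates 2, 3 and 4 had 9.56, 6.82 and 4.15 CPM. These values rest on 94 to 116 and 58 to 147 reads per library. Control libraries lay close together inside the range of the ventral midbrain libraries. The log2 fold change was -0.22 ± 0.34 (SE), and it turned to 0.04 without ventral midbrain replicate 4 and to 0.06 with a gene-length offset. The opposite strand of this locus carries MGST1, a glutathione transferase gene with 1923 to 4738 reads per library. The annotated transcripts of LMO3 and MGST1 share 0 stretches of 31 bases on either strand.

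LDB1 (ENSG00000198728.10, chromosome 10, 102107560 to 102120453, minus strand), the widely expressed LIM domain binding protein, was the cofactor with the most reads, at 34.8, 36.8 and 20.3 CPM in control and 38.8, 38.2 and 36.6 CPM in ventral midbrain libraries. Control replicate 4 was low, and the other 5 libraries lay within 34.8 to 38.8 CPM. The log2 fold change was 0.31 ± 0.22 (SE), and 0.08 without control replicate 4.

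LDB2 (ENSG00000169744.12, chromosome 4, 16501541 to 16898809, minus strand), the second LIM domain binding gene, had few reads. The control replicates stood at 6.95, 1.45 and 1.59 CPM and the ventral midbrain replicates at 2.73, 2.2 and 2.43 CPM. Control replicate 2 held 95 reads against 17 to 42 in each of the others, so the other 2 control libraries lay below all ventral midbrain libraries. The log2 fold change of -0.44 ± 0.62 (SE) turned to 0.69 when control replicate 2 was left out.

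The order of the genes was read per transcript length, in TPM (Salmon's length-scaled transcript abundance, summed per gene). In control libraries LMO4 was at 16.0 ± 3.41 TPM and LDB1 at 12.6 ± 5.54 TPM (SD, n = 3 each), with overlapping libraries. LMO2 followed at 4.0 ± 0.529 TPM and LMO1 at 1.66 ± 0.622 TPM. LMO3 at 0.824 ± 0.130 TPM and LDB2 at 0.624 ± 0.580 TPM overlapped at the bottom. The separation of LMO1 from LMO3 comes with the length term, since their control libraries overlapped in CPM, at means of 8.02 and 7.99. Likewise, in CPM the highest control library of LDB2 (6.95) lay below the lowest of LMO3 (7.11), whereas in TPM the libraries of these genes overlapped. In ventral midbrain libraries LDB1 stood first at 15.3 ± 1.98 TPM and LMO4 next at 9.30 ± 0.660 TPM, without overlap. LMO1 at 1.5 ± 0.976 TPM, LMO3 at 0.918 ± 0.496 TPM and LDB2 at 0.509 ± 0.0694 TPM followed with overlapping libraries. LMO2 came last at 0.197 ± 0.227 TPM, though its highest library, at 0.455 TPM, lay above the lowest ones of LMO1 and LDB2.

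**Figure D2:**
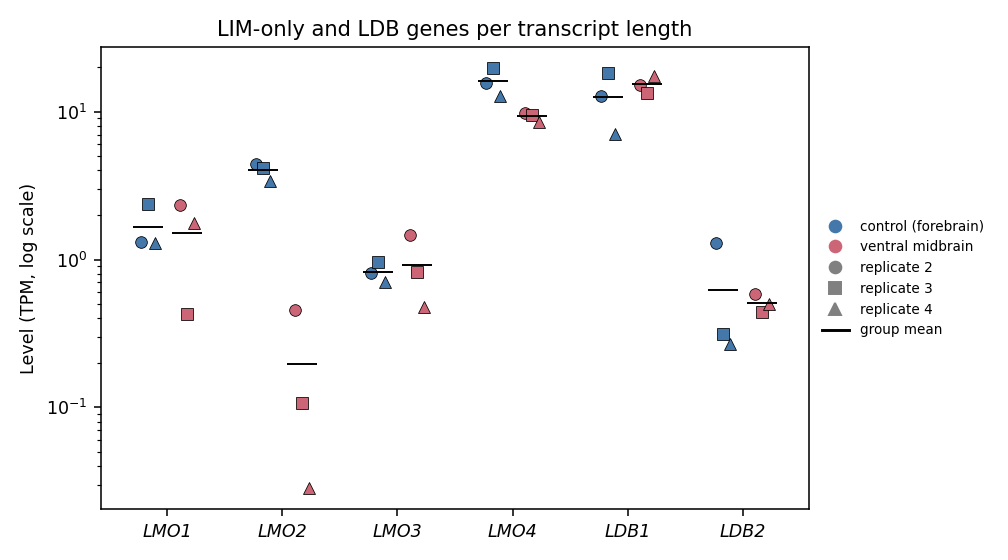
Level of each LMO and LDB gene per transcript length, in TPM on a log axis, with 1 point a library and lines for the means of 3. In control libraries LMO4 and LDB1 overlap at the top, while in ventral midbrain libraries LDB1 (13.4 to 17.3 TPM) lies above LMO4 (8.55 to 9.79 TPM). That order comes with the length term, and on estimated reads LMO4 lies above LDB1 in every library.

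The balance between LIM-only genes and their cofactors differed accordingly. LMO4 was at 1.22, 1.08 and 1.82 times the TPM of LDB1 in control replicates 2, 3 and 4, and at 0.642, 0.714 and 0.493 times in the ventral midbrain replicates. All control ratios were above 1 and all ventral midbrain ratios below it. The summed TPM of the 4 LMO genes over that of both LDB genes averaged 1.85 ± 0.564 for control and 0.761 ± 0.142 for ventral midbrain (SD, n = 3 each). Reads of a 3' end library do not grow with transcript length, and on estimated reads LMO4 exceeded LDB1 in every library, 6.26 to 9.62 times in control and 2.88 to 3.37 times in ventral midbrain. The low ratio side is thus the same on both scales. LDB1 came out above LMO4 in ventral midbrain libraries only through the length term, which reads of such libraries do not call for. On reads LMO4 was the more abundant of the pair in both groups. These ratios contain the LMO4 difference that chose the genes.

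Within the LMO family LMO4 supplied most reads in both groups, 89.1% ± 0.753 of LMO reads in control and 89.4% ± 4.0 in ventral midbrain libraries (SD, n = 3 each). The share of LMO2 was 4.40% ± 0.855 and 0.359% ± 0.381, while LMO1 held 3.27% ± 0.337 and 5.23% ± 3.11 and LMO3 held 3.25% ± 0.0260 and 4.97% ± 1.45. In TPM, LMO2 made up a larger part of the family, 18.0% ± 2.40 in control and 1.49% ± 1.56 in ventral midbrain libraries.

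The reads could be told apart between the family members. No stretch of 31 bases was shared between the annotated transcripts of any 2 of the 6 genes. Within a gene, Salmon's division of reads between transcripts was less certain. All reads of LMO4, LDB1 and LMO1 went to 1 transcript each, LMO4-202, LDB1-201 and LMO1-201, whose last 300 bases occur in no other annotated transcript of the gene. For LMO2, control replicates 2 and 4 gave 84.5% and 97.9% of reads to LMO2-202, and control replicate 3 gave 0% to it and 81.4% to LMO2-203. These 2 transcripts end at the same base, 33858576 on chromosome 11, and each holds the other's last 300 bases. All ventral midbrain reads of LMO2 that went to either were given to LMO2-203, an annotated nonsense-mediated decay transcript, and control libraries had the same all-or-none split, so no isoform change was read from it.

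LMO3 was the only member with at least 50 reads in every library and at least 2 transcripts holding 10% or more of its reads. Its leading transcript, LMO3-215, held 87.8%, 99.0% and 0% of the reads of control replicates 2, 3 and 4, against 90.6%, 97.6% and 100% for ventral midbrain. In control replicate 4, 96.3% went to LMO3-235, which contains the last 300 bases of LMO3-215. Unlike the LMO2 transcripts, these end at different bases of chromosome 12, 16548373 for LMO3-235 and 16550449 for LMO3-215. The share of LMO3-215 did not differ detectably between the groups (two-sided exact permutation test, p = 0.3). The smallest p that 3 against 3 allows is 0.1, and the family of tests held 1 gene. The difference of 33.8 percentage points was 2.68 without control replicate 4.

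Listed genes were then examined, from lists of LDB-binding and LMO-binding factors and from a last list of other LIM-domain-only proteins. Genes of the last list do not form LDB complexes, and the counts over all lists include them. Of 52 listed genes 31 could be tested. With edgeR 1 was higher and 2 lower at an adjusted p under 0.05 (9.68%), against 2.15% of all genes tested. The higher gene, FHL1, came from the last list, and the lower ones were LHX2 and RBBP8. This test left out the replicate numbers. Blocking by them called 1300 of all genes in place of 344 and changed calls in these lists, as given below. The median log2 fold change of the 31 was 0.10, and that of all genes tested 0.01. The lists were chosen with results of these data known, and LHX2 was among the genes known to differ.

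Of the 12 LIM homeodomain factors, which bind LDB through the same kind of domain, 5 were tested, 1 fell and 4 did not pass. LHX2, a forebrain patterning factor, was at 164, 210.2 and 165 CPM in control and 20.5, 13.1 and 4.65 CPM in ventral midbrain libraries, with no overlap. Its log2 fold change was -3.81 ± 0.54 (SE; edgeR adjusted p = 0.028). Blocking by replicate number ended the call (adjusted p = 0.067). Leaving out any control library or ventral midbrain replicate 3, or the low-count filter, also ended it, with an adjusted p of up to 0.11 over all alternatives. LMX1B, a midbrain and roof plate factor, had 1, 6 and 5 reads in control and 36, 12 and 62 in ventral midbrain libraries (edgeR adjusted p = 0.13). ISL1, a motor neuron and ventral forebrain factor, had 12, 10 and 25 reads in control and 0 in all 3 ventral midbrain libraries (edgeR adjusted p = 0.056, blocked by replicate number adjusted p = 0.030). A count of 0 there was taken to allow up to 3 reads, or 0.195 to 0.235 CPM, a limit set otherwise than the Poisson intervals of LMO2. LHX1 was at 0.0856 to 1.59 CPM and LMX1A at 0.219 to 0.941 CPM over the 6 libraries. LHX5, LHX6 and LHX9 were too low to be tested, and no read was assigned to LHX3, LHX4, LHX8 or ISL2. The summed CPM of the LIM homeodomain genes was 167 to 213 in control and 11.7 to 24.7 in ventral midbrain libraries, nearly all of it LHX2 in control. The LMO sum stood at 221 to 261 and 117 to 148 CPM.

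None of the 4 tested genes of the SSBP and RLIM list passed with edgeR, although 1 had an unadjusted p under 0.05, and DESeq2 called 1 while voom called 0. SSBP3, which stabilizes LDB1, was at 124, 116 and 104 CPM in control and 182, 196 and 156 CPM in ventral midbrain libraries, with no overlap (log2 fold change 0.63 ± 0.15, SE; edgeR adjusted p = 0.066, blocked by replicate number adjusted p = 0.0035). SSBP2 was at 48.9 to 59.1 and 45.1 to 55.4 CPM, SSBP4 at 38.1 to 55.4 and 46.1 to 72.6 CPM, and RLIM at 48.2 to 54.5 and 41.6 to 52.8 CPM, all overlapping (edgeR adjusted p of 0.70 to 0.86).

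Of 16 bHLH and GATA partners 6 were tested and none passed with edgeR, although 1 had an unadjusted p under 0.05, and DESeq2 called 1 while voom called 0. No read was assigned to TAL1, GATA1 or GATA4, and LYL1, the TAL1 paralog, had 1 to 25 reads per library. The E proteins, which pair with tissue-specific bHLH factors in LMO2 complexes, were present in both groups. TCF4 was at 672 ± 67.6 and 700.2 ± 79.2 CPM (SD, n = 3 each), TCF12 at 71.8 to 96.1 and 101 to 125 CPM, and TCF3 at 76.1 to 84.0 and 68.0 to 78.6 CPM (edgeR adjusted p of 0.94, 0.42 and 0.87). GATA2, named after its values were seen, had 2, 0 and 9 reads in control and 24, 51 and 24 in ventral midbrain libraries (edgeR adjusted p = 0.18).

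Of the 6 other LMO partners 1 fell and 5 did not pass. RBBP8, a DNA end-resection factor that binds LMO4, was at 127, 177 and 102 CPM in control and 61.7, 79.3 and 49.9 CPM in ventral midbrain libraries, with no overlap (log2 fold change -1.09 ± 0.23, SE; edgeR adjusted p = 0.046). It no longer passed when control replicate 2 or 3 or ventral midbrain replicate 2 or 4 was omitted, nor with the gene-length offset or the deposited normalized values (highest adjusted p = 0.20). KDM5A, a histone demethylase, was at 245 ± 23.9 and 242 ± 17.5 CPM, IL6ST, a cytokine receptor subunit, at 101 to 137 and 67.5 to 97.8 CPM, and DEAF1, a transcription factor that binds LMO4, at 27.2 to 35.3 and 24.9 to 27.8 CPM (edgeR adjusted p of 0.98, 0.41 and 0.78).

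Other proteins made only or mainly of LIM domains act largely at the cytoskeleton and do not form LDB complexes. Of 14 listed, 10 were tested, 1 rose and 9 did not pass. FHL1, a muscle and cytoskeletal LIM protein, rose from 35.1 ± 5.81 to 70.3 ± 6.52 CPM (SD, n = 3 each; log2 fold change 1.0 ± 0.17, SE; edgeR adjusted p = 0.015). Omitting replicate 2 of either group ended that call, at an adjusted p of up to 0.068. CRIP2 was at 159 to 197 and 232 to 305 CPM (edgeR adjusted p = 0.11, blocked by replicate number adjusted p = 0.013), LIMS1 at 72.1 to 89.7 and 63.0 to 72.9 CPM, and CRIP1 at 30.6 to 67.9 and 38.7 to 71.0 CPM.

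**Figure D3:**
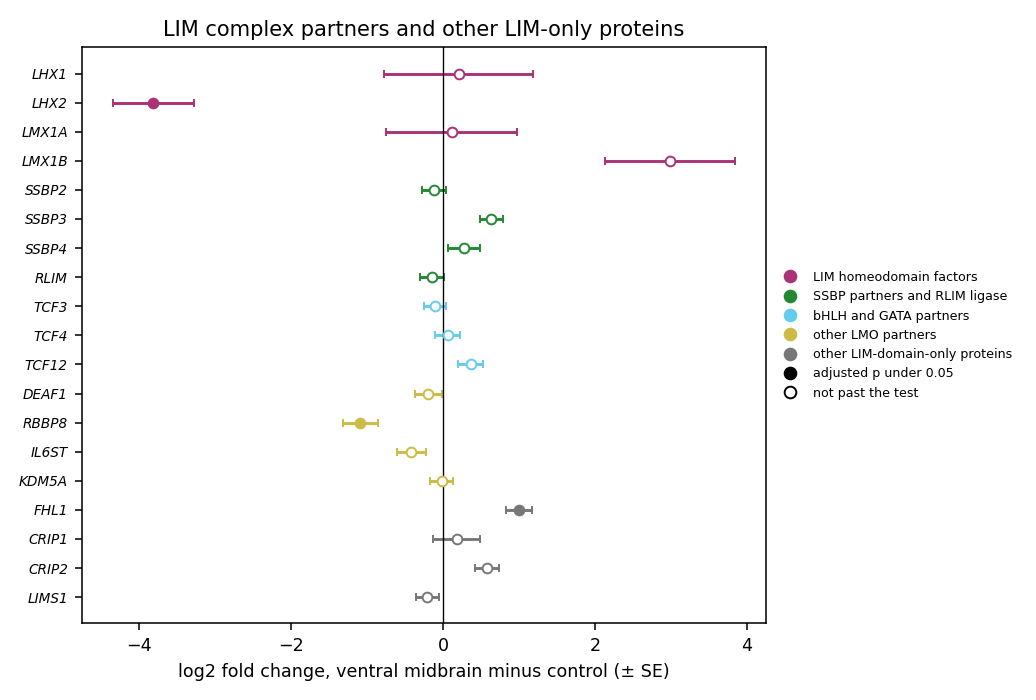
log2 fold change, ventral midbrain minus control, with its SE for 19 of the 31 tested genes of the partner and other LIM-only lists. Colours give the list, and filled points an edgeR adjusted p under 0.05. The plot holds the LIM homeodomain and SSBP lists, up to 4 genes of each other list with the highest level and all genes past the test, without ISL1, which had 0 reads in the ventral midbrain libraries. LHX2 (-3.81) and RBBP8 (-1.09) are lower and FHL1 (1.0) is higher, while the other points are open.

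Because LMO2 and LDB2 mark endothelial and blood cells, and LMO3 and LMO4 neurons, markers of these cells were read beside them. In bulk RNA, fewer cells of a type and less RNA per cell cannot be told apart. The 13 endothelial markers summed to 24.0 to 26.3 CPM in control and 11.2 to 16.7 CPM in ventral midbrain libraries, and most of that gap lay in KDR, VWF and EGFL7. KDR was at 5.78 to 12.2 and 3.84 to 7.21 CPM, VWF at 4.19 to 7.32 and 1.65 to 4.37 CPM, and EGFL7 at 3.94 to 6.95 and 1.80 to 2.28 CPM (edgeR adjusted p of 0.41, 0.31 and 0.093). Blocking by replicate number called EGFL7 lower (adjusted p = 0.031). Of the junction genes that define endothelium, CDH5 was at 0 to 1.13 CPM and PECAM1 at 0.605 to 1.90 CPM, both overlapping between the groups, and SOX17 had no read. TEK, an angiopoietin receptor gene, was at 0.151 to 3.08 CPM in control and 0.975 to 2.79 CPM in ventral midbrain libraries, with the higher mean in the latter (edgeR adjusted p = 0.89). None of the 6 tested endothelial markers passed with edgeR, although 2 had an unadjusted p under 0.05, and DESeq2 called 1 while voom called 0. Their part in the LMO2 difference was not tested.

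The 12 blood and microglial markers summed to 41.5 to 80.4 CPM in control and 69.6 to 83.9 CPM in ventral midbrain libraries, and so overlapped between the groups. AIF1, C1QA, C1QB and P2RY12 had no read, SPI1 was at 0 to 0.157 CPM and PTPRC had reads in ventral midbrain replicate 2 alone. RUNX1, at 29.9 to 58.3 and 15.9 to 49.3 CPM, and CD34 made up most of the sum. RUNX1 had an edgeR adjusted p of 0.73, and of 0.040 when blocked by replicate number. CD34 rose from 11.4 ± 3.40 to 43.1 ± 17.0 CPM (SD, n = 3 each; edgeR adjusted p = 0.015), against the direction of LMO2, a call lost without control replicate 3 or 4.

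The 14 neuron markers summed to 1358 to 2101 CPM in control and 858 to 1250 CPM in ventral midbrain libraries, and STMN2 made up most of the gap at 639 to 1456 and 150.0 to 626 CPM (edgeR adjusted p = 0.54, blocked by replicate number adjusted p = 0.0091). Of the 13 tested, edgeR called none and DESeq2 4, voom called 0, and 5 had an unadjusted p under 0.05. Blocking by replicate number called 6 lower (STMN2, DCX, INA, NEFL, NEFM and NSG2). The median log2 fold change of the 13 was -1.14, and 8 were negative. DCX averaged 58.0 CPM in control and 26.4 CPM in ventral midbrain libraries, NEFL 4.95 and 1.15 CPM, and NEFM 7.61 and 1.60 CPM. These 3 did not overlap between the groups (edgeR adjusted p of 0.10, 0.095 and 0.19). All 14 neuron markers had reads. MAP2, at 177 to 276 and 206 to 295 CPM, TUBB3, at 214 to 233 and 203 to 255 CPM, and GAP43, at 40.5 to 69.5 and 57.1 to 140 CPM, overlapped. The 13 mesenchymal and neural crest markers summed to 974 to 1599 and 443 to 497 CPM, with COL1A1 the most abundant and no read for SOX10. With edgeR 4 of 10 tested genes were lower (COL1A1, COL3A1, PRRX1 and FOXC1), against 5 with the replicate block, and 6 called in either direction by DESeq2 and 3 by voom. COL3A1 lost its call in 7 of 16 alternatives (highest adjusted p = 0.60), among them leaving out control replicate 4 or any 1 ventral midbrain library, and FOXC1 without control replicate 4 (adjusted p = 0.056). DCN and LUM, which encode matrix proteoglycans, had log2 fold changes of 2.11 and 2.37, with all ventral midbrain libraries above all control libraries (edgeR adjusted p of 0.29 and 0.30). LMO4 was lower together with both sums. Within the control group, replicate 3 had the lowest neuron and mesenchymal sums, 1358 and 974 CPM, and 230.2 CPM of LMO4, against 232 and 195 CPM in the others. With 3 libraries no relation was read from these values. The part of the neuron and mesenchymal markers in the LMO4 difference was not tested.

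Genes with the most similar pattern were ranked by Pearson's r of log2 CPM over the 6 libraries among 11341 protein-coding genes. The libraries are shared and fall into 2 groups, so that a high r mainly reflects a difference between the groups, and it is a description. Closest to LMO2 were KCNMA1, a potassium channel gene (r = 0.995), ERBB4, a neuregulin receptor gene (0.994), PSMD8 (0.992), DCTN3 (0.991) and RFK (0.988). ERBB4 was at 10.8, 11.4 and 13.8 CPM in the control replicates, against 3.45, 2.04 and 1.0 CPM for ventral midbrain replicates 2, 3 and 4. All 5 genes had the same order of ventral midbrain libraries as LMO2. Among the control libraries ERBB4 was highest in replicate 4 and LMO2 in replicate 2. The 4 genes other than ERBB4 had far smaller differences, as with PSMD8, a proteasome subunit gene, at 104 and 83.3 CPM on average. Closest to LMO4 were NRP2, a semaphorin coreceptor gene (r = 0.996), CALB1, a calcium-binding protein gene (0.992), PLXNA4, a plexin gene (0.989), SNAP47 (0.988) and ZC3HAV1 (0.984). NRP2 averaged 263 and 64.4 CPM, CALB1 65.8 and 9.22 CPM, and PLXNA4 218 and 114 CPM, the last close to LMO4 in both level and difference. As many as 75 genes had r above 0.95 with LMO2 and 70 with LMO4.

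**Figure D4:**
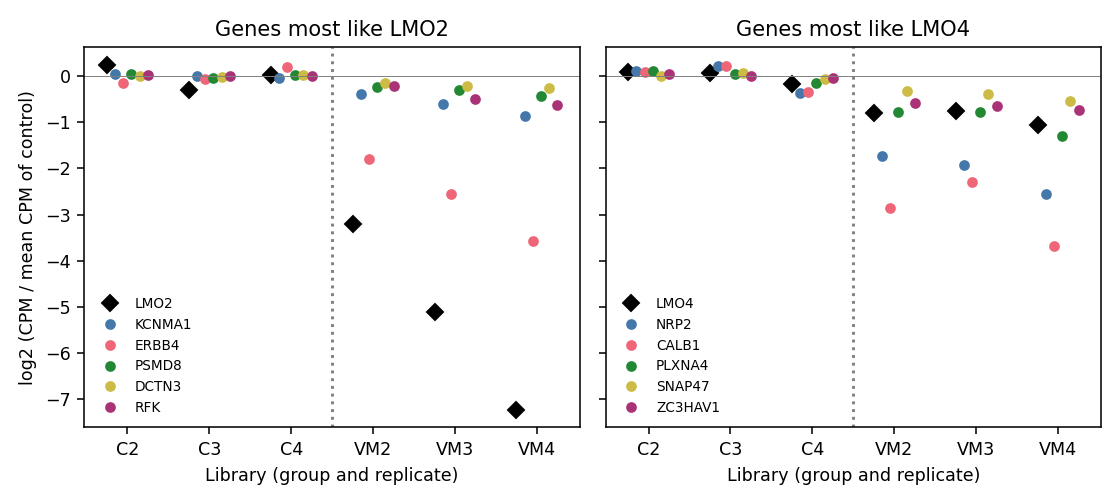
log2 ratio of CPM to the mean of the control libraries for LMO2 (left) and LMO4 (right), shown as black diamonds, and for the 5 genes with the highest r to each, shown as coloured points. Libraries are control (C) and ventral midbrain (VM) with their replicate numbers. ERBB4 is lower in the ventral midbrain libraries, as LMO2 is, with a smaller difference, and PLXNA4 lies close to LMO4 in all 6 libraries.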

How the data were processed

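RNA of 3 control and 3 ventral midbrain libraries was measured. The submitters' processing notes name Salmon (no version), DESeq2 1.27.12 and GRCh38.p13. The deposited files give estimated counts, TPM and effective length (another length-based value) per transcript, and the authors' table gives normalized gene signal, whose scaling no source used here gives. Nor is it given whether counting used strand.

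Estimated counts were summed per gene with GENCODE 29 (GRCh38), which matched 205225 of 226608 transcripts by identifier without version (unmatched transcripts held 0.992% to 1.12% of reads), and rounded. Genes were filtered with filterByExpr, scaled by TMM and tested with edgeR 4.0.16 (quasi-likelihood, robust, adjusted by Benjamini and Hochberg over 15984 genes, threshold 0.05) in R 4.3.3. SE is the absolute log2 fold change over the square root of F, and CPM uses TMM-scaled library sizes. Intervals are exact Poisson at 95%. Transcript shares were compared by exact permutation with scipy 1.17.1. Figures were drawn with matplotlib 3.10.9.

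The members and lists were chosen with earlier results of these data known. Named genes are all members, genes of the partner and other LIM-only lists past the test, and LIM homeodomain and SSBP genes. Also named are up to 4 genes of each other list with the highest level. The rule adds 5 genes most like LMO2 and LMO4 with an average log2 CPM of at least 2. For 1 gene covered by this rule no values are reported here, and list counts still include it. Deviations from the group means correlated at 0.213, 0.313 and 0.181 between samples numbered 2, 3 and 4, against -0.236 to 0.0208 for other pairs across groups. The replicate numbers were thus taken as a possible pairing. The main test used group alone and left that pairing out, and the replicate block was run as an alternative. No label says what a number shares. On simulated data for this comparison (15476 genes tested), the test found 36% of 100 simulated 2-fold changes and 89% of 100 4-fold ones, with 9 of 134 calls false. As alternatives, scaling was changed to RLE or upper quartile, the filter dropped or set to 2 CPM in 3 libraries, and the tool to DESeq2 1.42.0 or voom of limma 3.58.1. An offset for gene length, the authors' normalized signal as log2(value + 1) in limma, the replicate block, protein-coding genes alone and the omission of each library were also run.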

Additional observations from a re-analysis of the deposited data

How the results depend on the processing

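Over the 16 alternatives LMO2 stayed lower (log2 fold change -5.77 to -3.81, the first without ventral midbrain replicate 2 and the second without replicate 4), as did LMO4 (-0.95 to -0.78), and LDB1 stayed positive (0.08 to 0.46). The sign changed for LMO1 in 1, LMO3 in 2 and LDB2 in 1 alternative, and leaving out 1 library gave LDB2 values of -0.80 to 0.69. Of all genes, 344 passed the test, 1012 without a filter, 750 with DESeq2, 173 with the length offset, 186 with the deposited values and 1300 with the replicate block. Leaving out 1 library gave 131 to 258. With the block, 1 LIM homeodomain gene, ISL1 in place of LHX2, was lower, and 1 gene of the SSBP list (SSBP3) and 2 other LIM-only genes (FHL1 and CRIP2) were higher. The block changed no other call in these lists.

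Without a filter 1 LIM homeodomain gene was higher and 2 lower, and DESeq2 called 1 higher. Both voom and protein-coding genes alone gave 2 lower. The SSBP list had 1 higher gene without a filter, with DESeq2, with the length offset and with the deposited values, and the bHLH and GATA list 1 without a filter and with DESeq2. The other LMO partners had 0 lower genes with the length offset or the deposited values. Other LIM-only genes had 2 higher without a filter and with DESeq2. Leaving out 1 library gave 0 to 1 lower LIM homeodomain genes, 0 to 1 lower LMO partners and 0 to 1 higher LIM-only genes. In TPM the share of the LMO sum differed between the groups by 5.0 percentage points for LMO1, -16.5 for LMO2, 3.76 for LMO3 and 7.77 for LMO4. The differences in reads were 1.96, -4.04, 1.72 and 0.357. Shares in TPM and in reads come from the same libraries and differ by the length term. The cause of the other shifts was not tested. LMO2 with 1 to 18 reads per ventral midbrain library and LDB2 with 17 to 95 reads in the 6 libraries rest on few reads.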
